A study of Drosophila melanogaster with 3 samples.

Results

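MCM peaks on chromosome 4 of Drosophila melanogaster were taken as every entry of the peak lists of 2 MCM immunoprecipitations whose chromosome field was 4. They numbered 213 of 18115 peaks, with 123 of 9668 in replicate 1 and 90 of 8447 in replicate 2. The list of the whole series, which joins peaks that overlap between the replicates, held 46 intervals on this chromosome. Both immunoprecipitations used asynchronous S2-DRSC cells, a male line derived from embryos, and a mouse monoclonal antibody made against the yeast MCM complex that recognises the Walker B motif, so the MCM subunits cannot be told apart. The labels number the samples as separate extractions of untreated cells and do not say whether the cultures were separate. The remaining sample was input DNA, which has no list among the data analysed here.

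The MCM2-7 complex is the helicase that unwinds DNA ahead of the replication fork. It is loaded onto chromatin as inactive double hexamers by the origin recognition complex with Cdc6 and Cdt1, and only some of the loaded complexes fire in S phase, so MCM sites mark places where replication may start. Chromosome 4, the dot chromosome, is the smallest fly autosome. It is packaged largely with the heterochromatin protein HP1a, is coated by a chromosome-specific protein, POF, and carries repeats among many expressed genes. In the fly assembly its sequence runs from the centromeric side towards the tip of the right arm, and positions below follow that direction on FlyBase release 5.1.

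MCM peaks on chromosome 4 ran from 63464 to 1310391, with long empty stretches between them. The longest was 86.0 kb over both lists together and 235.0 kb in replicate 2 alone. Peaks were denser than on each major arm in replicate 1 and within the range of the arms in replicate 2. Near the tip, 7 replicate 2 peaks had scores far above all others on the chromosome, and values without them are given beside the main results that they touch. The first replicate 1 peak, MCM_R1_7681, lay at 64335 to 64529 with a score of 7.50. The first replicate 2 peak, MCM_R2_6394, lay at 63464 to 63477 with a score of 8.88. The last peaks were MCM_R1_7803 at 1254894 to 1254916 and MCM_R2_6483 at 1310241 to 1310391, so the replicate 2 list reached farther towards the tip. Taking the last peak end, 1310391, as the length, replicate 1 had 93.9 peaks per Mb and replicate 2 had 68.7. The major arms 2L, 2R, 3L, 3R and X had 78.6 and 66.0 in the same lists, with single arms from 73.3 to 86.2 in replicate 1 and from 56.3 to 74.2 in replicate 2. The ratio of chromosome 4 to the arms was 1.19 in replicate 1 and 1.04 in replicate 2, with a mean of 1.12 ± 0.108 (SD, n = 2). Up to the last replicate 1 peak, which leaves out the 7 peaks at the tip, the ratios were 1.25 and 1.00. Among 89 consecutive arm windows as long as chromosome 4, 66 held fewer replicate 1 peaks and 50 held fewer replicate 2 peaks. With 2 libraries an exact sign-flip permutation test cannot give a two-sided p below 0.5, so the comparisons with the arms are given as values with no test.

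**Figure D1:**
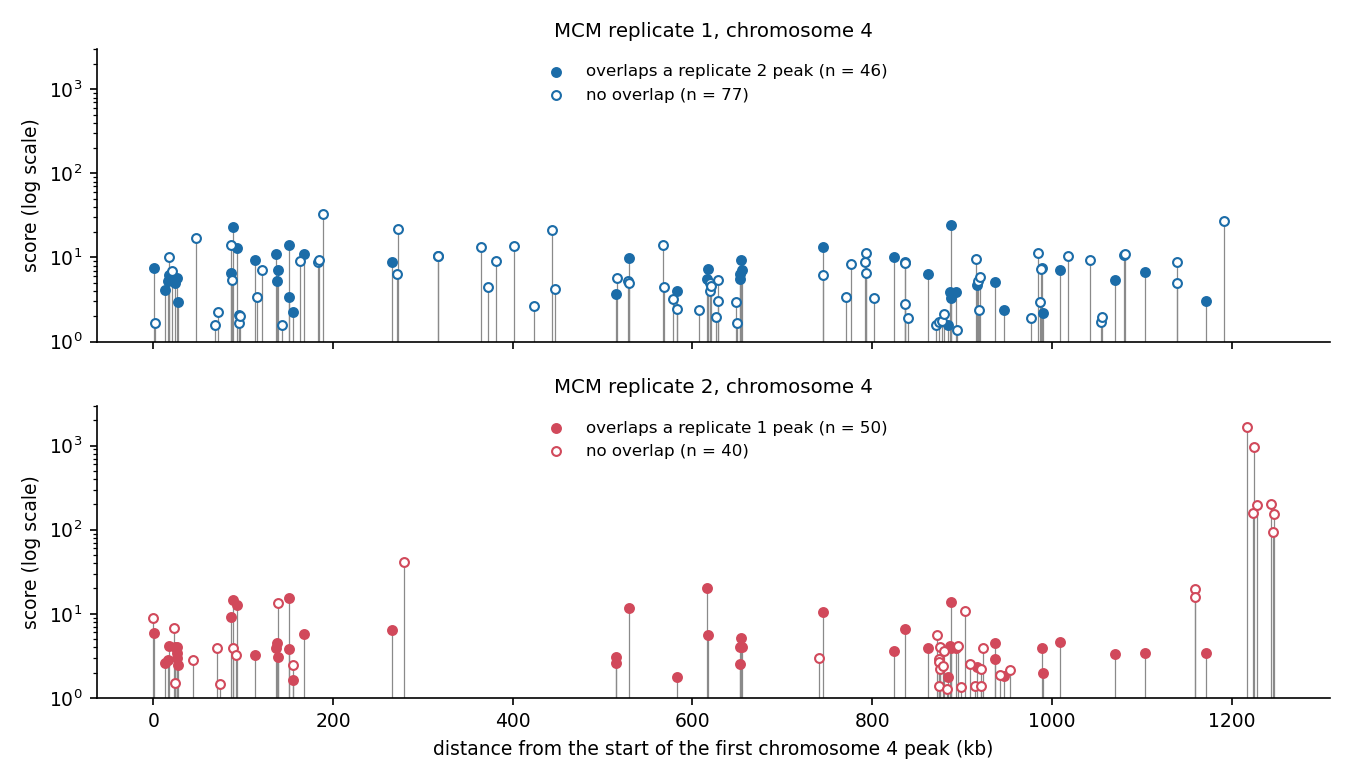
Score of each MCM peak on chromosome 4 (log scale) against its distance in kb from the start of the first peak, for replicate 1 (top) and replicate 2 (bottom), with filled points for peaks that overlap a peak of the other replicate and open points for those that do not. Filled points are dense in the first part of the plotted range and missing from a long stretch left of the centre, where replicate 1 has 9 open points, and 7 replicate 2 peaks with scores from 94.2 to 1684 stand at the right edge with no replicate 1 peak.

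By the median gap, neighbouring peaks on chromosome 4 were closer together than over the pooled major arms, but about as close as on X. The median gap from the end of a peak to the start of the next was 3428 bp in replicate 1 (interquartile range 689 to 14108) and 3037 bp in replicate 2 (660 to 12504). On the major arms the medians were 3993 and 4213 bp. Single arms ran from 3394 bp on X to 4247 bp on 2L in replicate 1. In replicate 2 they ran from 3165.5 bp on X to 5369 bp on 2L. Gaps under 1 kb made up 32.0% of 122 gaps in replicate 1 and 32.6% of 89 in replicate 2, against 26.5% and 26.7% on the arms. When peaks closer than 1 kb were merged, the chromosome 4 median gap was 1.24 times that of the arms in replicate 1 and 0.818 times in replicate 2. The direction therefore differed between the replicates once neighbouring peaks were merged. Intervals found in both replicates were sparser, with 35.1 per Mb and a median gap of 12018 bp, against 47.2 per Mb and 7242 bp on the arms.

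Peaks were unevenly placed. In 27 bins of 50 kb, the fullest bin over both lists was 950 to 1000 kb, with 10 replicate 1 and 13 replicate 2 peaks. It was followed by 50 to 100 kb with 10 and 12 peaks, and by 900 to 950 kb with 9 and 12. In the bin at 50 to 100 kb, 7 and 9 of these overlapped, whereas at 900 to 950 kb 3 and 3 did. Replicate 1 peaks stood alone in 5 bins (18.5%, arms 7.72%) and replicate 2 peaks in 1 (3.70%, arms 2.27%). Both lists had peaks in 19 bins (70.4%, arms 73.0%), and 2 bins held none (7.41%, arms 17.0%). Across the bins the peak numbers of the replicates had a Spearman's rho of 0.663 on chromosome 4, against 0.899 over 2382 bins of the major arms and 0.885 to 0.911 within single arms. The chromosome 4 value rests on 27 bins, against 423 to 558 on single arms, and arm stretches of equal length were not compared. The replicate 2 peaks at the tip lie in bins 26 and 27, and no value without them was computed. All bins come from the same pair of libraries, and these values are descriptions.

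**Figure D2:**
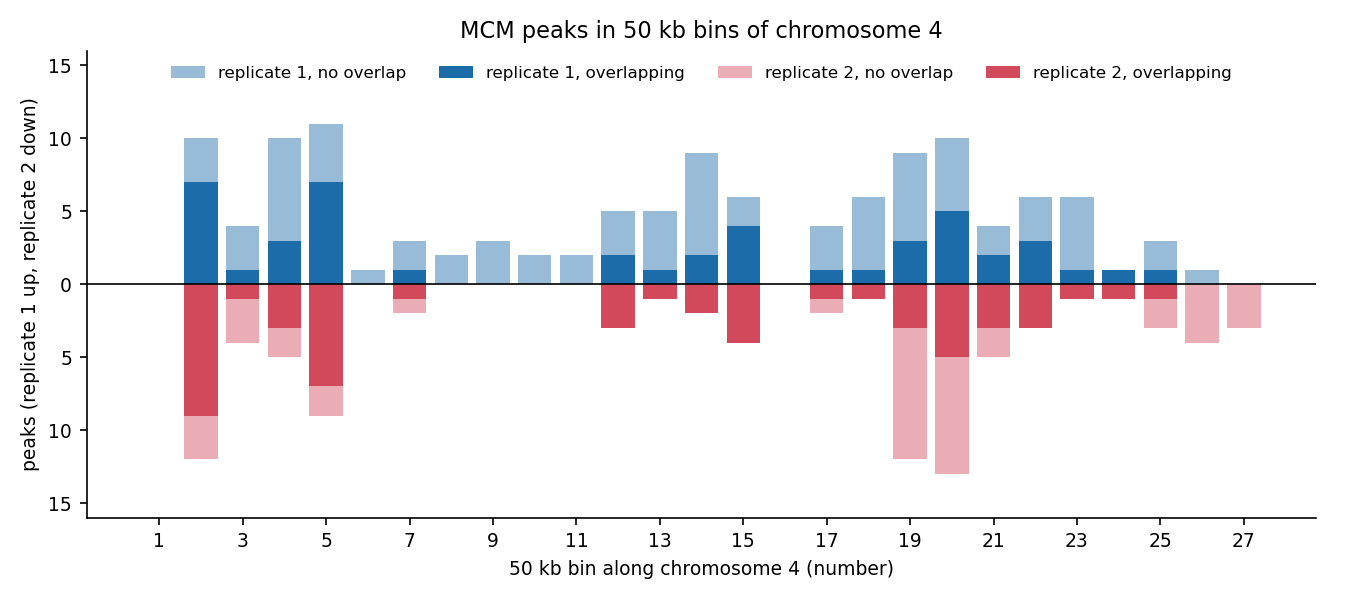
Number of MCM peaks in each 50 kb bin of chromosome 4, with replicate 1 above and replicate 2 below the zero line, and dark bars for peaks that overlap a peak of the other replicate. Bins 6 and 8 to 11 hold replicate 1 peaks alone, bins 1 and 16 hold none, and in bins 19 and 20 most of the 12 and 13 replicate 2 peaks do not overlap.

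The 3 equal segments of 437 kb differed between the lists. The segment nearest the centromere had 43 replicate 1 and 32 replicate 2 peaks, of which 19 and 21 overlapped. The middle segment had 38 replicate 1 peaks but 12 replicate 2 peaks. In the middle segment 10 of the 38 replicate 1 peaks (26.3%, exact 95% interval 13.4 to 43.1) and 11 of the 12 replicate 2 peaks (91.7%, 61.5 to 99.8) overlapped. The segment nearest the tip had 42 and 46 peaks, of which 17 and 18 overlapped. Replicate 2 thus had few peaks in the middle, nearly all of them at replicate 1 positions, and many unmatched peaks nearer the tip, among them the 7 with the highest scores.

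The longest stretch of chromosome 4 without a peak in either list was 86.0 kb long, from 718377 to 804328. The next were 76.6 kb (252073 to 328647), 66.8 kb (510989 to 577801), 46.7 kb (380900 to 427642) and 38.3 kb (592869 to 631212). All 5 lay between 252073 and 804328. Replicate 2 alone had a stretch of 235.0 kb without a peak, from 342908 to 577912, in which replicate 1 had 9 peaks. These 9 replicate 1 peaks had scores from 2.65 to 21.1 with a median of 10.4, and none of them overlapped a replicate 2 peak. The replicate 2 peak at its border, MCM_R2_6425 at 342871 to 342907, scored 40.9 and was 37 bp wide, and it overlapped no replicate 1 peak.

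In both lists a smaller share of peaks overlapped the other replicate on chromosome 4 than on any major arm. In replicate 1, 46 of 123 peaks shared at least 1 bp with a replicate 2 peak (37.4%, exact 95% interval 28.8 to 46.6), while over all chromosomes the share was 59.8%. Single major arms ranged from 59.2% to 62.7%. In replicate 2, 50 of 90 peaks overlapped a replicate 1 peak (55.6%, 44.7 to 66.0), while over all chromosomes the share was 70.3%. Single arms in this list ranged from 65.5% on X to 81.4% on 2L. The chromosome 4 interval reached the value of X, so a difference from X was not detectable in replicate 2. On the heterochromatin scaffolds, replicate 1 and replicate 2 peaks overlapped in 36.4% and 23.4% of cases, so chromosome 4 was near them in replicate 1 and lay between them and the arms in replicate 2. The intervals cover counting error only, and neighbouring peaks are not independent.

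**Figure D3:**
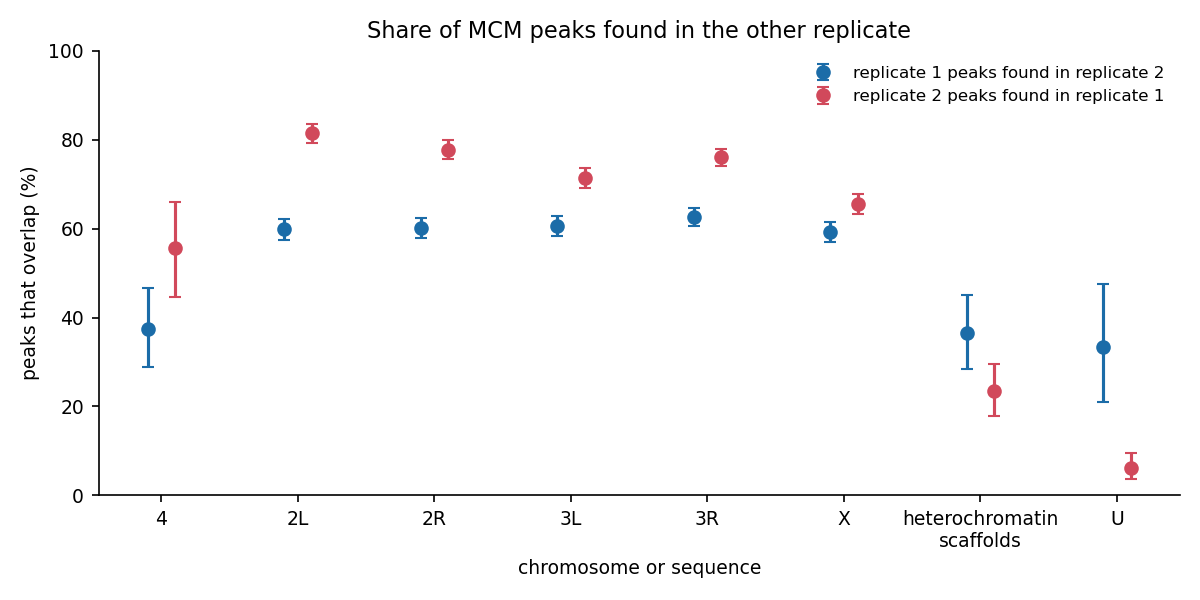
Percentage of MCM peaks that overlap a peak of the other replicate by at least 1 bp, for chromosome 4, each major arm, the heterochromatin scaffolds and the unplaced sequence U, with exact 95% binomial intervals as bars. Chromosome 4 stands at 37.4% in replicate 1 and 55.6% in replicate 2, under each of the 5 arms in both lists.

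The same comparison was made with stretches of equal length. The major arms hold 89 consecutive windows of 1310391 bp. In these, the share of replicate 1 peaks found in replicate 2 had a median of 60.9%, and 1 window lay below the chromosome 4 value. That window was the first on 2R, on its centromeric side, with 31.7%. For replicate 2 peaks the window median was 77.5% and 3 windows lay below chromosome 4. These were the first on 2R, with 40.6%, and windows on X with 50.9% and 52.0%. Another window on X had the same share as chromosome 4, 55.6%.

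In replicate 1 the share rose with peak width, and chromosome 4 lay below the arms within each width class. Of replicate 1 peaks under 50 bp, 0 of 18 overlapped (exact 95% interval 0 to 18.5), against 14.4% on the arms, so a difference was not detectable there. Of those from 50 to 99 bp, 1 of 22 overlapped (4.55%, exact 95% interval 0.115 to 22.8), against 33.0%. From 100 bp to under 200 bp the share was 17 of 46 (37.0%, 23.2 to 52.5), against 71.7%. At 200 bp or more it was 28 of 37 (75.7%, 58.8 to 88.2), against 91.4%. In replicate 2 the shares were 32.4%, 70.0%, 80.0% and 61.5% from the narrowest to the widest class, against 42.2%, 72.1%, 92.4% and 93.6% on the arms. The replicate 2 intervals reached the arm values in the 3 narrower classes, so a difference there was not detectable with 37, 20 and 20 peaks. In the widest class of 13 peaks, 5 did not overlap. Without the 7 peaks at the tip, 8 of 9 peaks in this class overlapped (88.9%, 51.8 to 99.7), and the interval then held the arm value. The other classes without the tip were at 33.3%, 73.7% and 84.2%. By score, the replicate 1 share on chromosome 4 was 16.7% of 30 peaks under 3, 47.2% of 36 from 3 to 6 and 16 of 32 from 6 to 10, against 45.9%, 68.0% and 68.5% on the arms. The exact 95% intervals of these classes were 5.64 to 34.7, 30.4 to 64.5 and 31.9 to 68.1, the last ending just under the arm value. From 10 to 20 it was 31.6% of 19 peaks (12.6 to 56.6), against 46.2%, so a difference was not detectable there. Above 20 it was 2 of 6 on chromosome 4 and 1 of 5 on the arms, the one class in which chromosome 4 was higher. Among replicate 1 peaks of at least 100 bp and a score of at least 6, 23 of 46 overlapped (exact 95% interval 34.9 to 65.1), against 83.8% on the arms. The matched share was therefore smaller on chromosome 4 among wide, high-scoring peaks too.

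**Figure D4:**
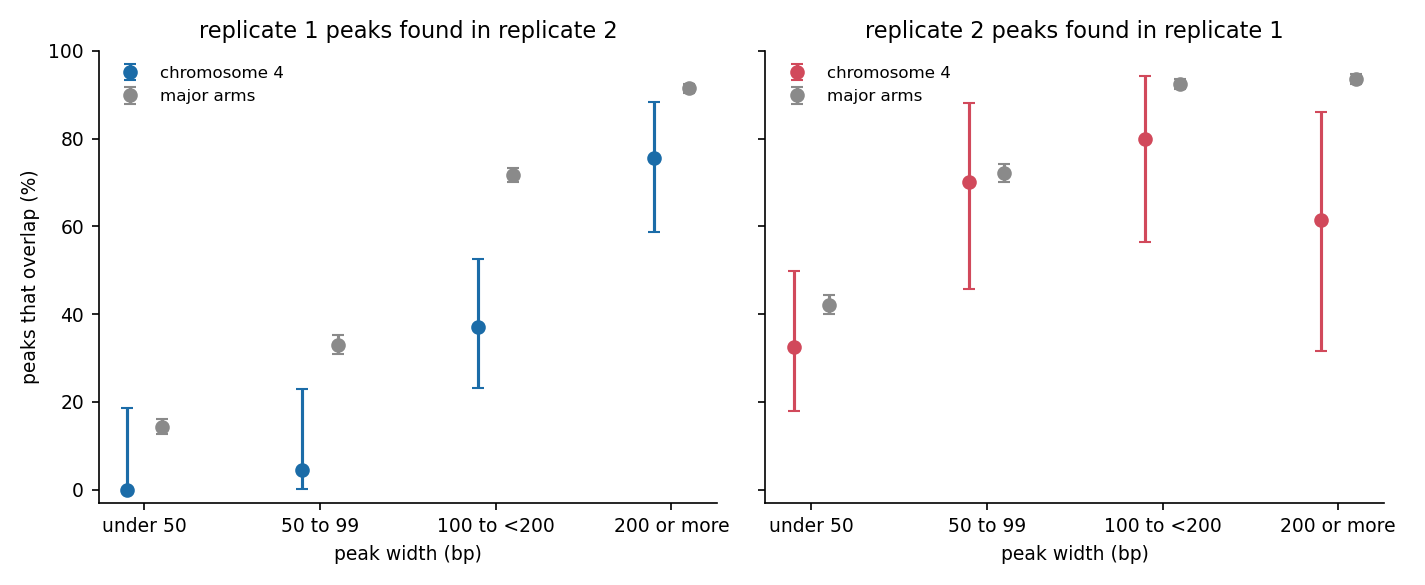
Percentage of peaks that overlap a peak of the other replicate by width class in bp, for chromosome 4 (coloured) and the major arms (grey), with exact 95% binomial intervals, for replicate 1 (left) and replicate 2 (right). The chromosome 4 points of replicate 1 rise from 0 to 75.7% with width and stay under the grey points.

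Unmatched replicate 1 peaks on chromosome 4 were often far from any replicate 2 peak. Of these 77 peaks, 11 had a replicate 2 peak within 500 bp (14.3%), against 26.3% on the arms. The nearest replicate 2 peak lay more than 10 kb away for 31 of them (40.3%, against 16.8%). Of the 40 unmatched replicate 2 peaks, 9 lay within 500 bp of a replicate 1 peak (22.5%, against 36.0%) and 9 lay more than 10 kb away (22.5%, against 8.32%). The 7 replicate 2 peaks at the tip made up most of those 9. Without them, 2 of 33 unmatched replicate 2 peaks lay more than 10 kb away (6.06%), below the arms, and 27.3% lay within 500 bp. The larger share of distant unmatched peaks was thus seen in replicate 1, and in replicate 2 it rested on the tip.

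Peak widths on chromosome 4 differed between the replicates. The median width was 143 bp in replicate 1 (interquartile range 85 to 240.5) and 63.5 bp in replicate 2 (22 to 141), against 134 and 97 bp on the arms. Peaks under 50 bp were 18 of 123 in replicate 1 (14.6%, arms 16.6%) and 37 of 90 in replicate 2 (41.1%, arms 27.0%). Peaks of 10 bp or less made up 14.4% of the replicate 2 peaks, against 8.83% on the arms. Narrow replicate 2 peaks were as common on the heterochromatin scaffolds, with 42.7% under 50 bp and 15.1% of 10 bp or less. X had 33.0% and 10.2%. The widest replicate 1 peaks were MCM_R1_7689 (89245 to 90428, 1184 bp), MCM_R1_7729 (577802 to 578861, 1060 bp) and MCM_R1_7796 (1133461 to 1134311, 851 bp). Each of them overlapped replicate 2 peaks, and MCM_R1_7689 spanned 3 of these. The widest replicate 2 peaks were MCM_R2_6479 (1288168 to 1289547, 1380 bp), which overlapped none, MCM_R2_6450 (948131 to 948626, 496 bp) and MCM_R2_6402 (89210 to 89669, 460 bp).

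The scale of the scores was examined before they were compared. The files do not name a unit, but scores recurred exactly within chromosomes. Of 1480 values that recurred in replicate 1, 96.9% did so on a single chromosome, and in replicate 2 the share was 97.3% of 1177. On chromosome 4 such scores were few, at 5 of 123 replicate 1 peaks (4.07%) and 12 of 90 replicate 2 peaks (13.3%), against 4205 of 9351 and 3021 of 7848 (38.5%) on the arms. A chromosome with few peaks offers fewer chances for a score to recur, and the part of peak number in this difference was not tested. Among the 90 narrowest replicate 1 peaks of chromosome 4, 67.8% of scores were a ratio of whole numbers with a denominator up to 30, to within 3e-06 of the value, times a step of 1.10. With the step of 2L, 1.40, the share was 0%. In replicate 2, 64.4% of chromosome 4 scores had this form with a step of 0.951. The steps of the arms were 1.24 to 1.44 in replicate 1 and 1.03 to 1.17 in replicate 2. Scores therefore carry a factor that differs between chromosomes and between lists, and the median score and the median pair ratio are given both as deposited and divided by the step. Shares above a score, score classes, windows and ranks are as deposited only, and the part of the factor in them was not tested. No source used here says what the whole numbers count, and each step was the value that gave the simplest ratios.

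Scores on chromosome 4 were high in replicate 1. The median was 5.54 in replicate 1 and 3.89 in replicate 2, against 3.55 and 3.63 on the arms, which gives ratios of 1.56 and 1.07. Divided by the steps chosen for the simplest ratios, the ratios were 1.93 and 1.25. Up to the last replicate 1 peak, the replicate 2 ratio was 1.05 as deposited. The replicate 1 median lay above those of all 89 arm windows, which ran from 2.94 to 4.54, and the replicate 2 median lay above 65 of them. Scores above 10 made up 20.3% of replicate 1 and 21.1% of replicate 2 peaks on chromosome 4, against 1.03% and 1.94% on the arms. On the heterochromatin scaffolds these shares were 5.71% and 27.1%, and on U they were 0% and 55.7%. In replicate 2 both were thus above chromosome 4. Scores above 20 were found in 6 replicate 1 peaks (4.88%), where the share over all chromosomes was 0.124%, and in 9 of 90 replicate 2 peaks, where it was 2.33%. The share in replicate 2 was higher still on the heterochromatin scaffolds (22.0%) and on U (38.1%). The 7 peaks at the tip were among these 9, and without them 2 of 83 replicate 2 peaks scored above 20 (2.41%), close to the share over all chromosomes. Without them 14.5% scored above 10, below the 18.9% of the first window on X, the highest arm window in replicate 2. In replicate 1 the highest arm window had 9.76%. Of the chromosome 4 peaks above 20, 2 of 6 in replicate 1 and 1 of 9 in replicate 2 overlapped a peak of the other replicate. On the arms 1 of 5 and 2 of 29 did, so scores above 20 were mostly unmatched in both places.

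Where the replicates shared a peak, the replicate 2 score was usually the lower one. Over the 46 pairs on chromosome 4, the median ratio of replicate 2 to replicate 1 was 0.690, with an interquartile range of the log2 ratio from -0.85 to -0.16, and 37 pairs were lower in replicate 2. On the major arms the median ratio was 1.02 over 5669 pairs, 45.9% were lower in replicate 2, and single arms ran from 1.01 to 1.05. The median log2 ratio of chromosome 4 was -0.54, below that of each of the 89 arm windows, which ran from -0.11 to 0.30. It was 0.04 over 51 pairs on the heterochromatin scaffolds. Divided by the steps, the median ratio was 0.796 on chromosome 4 and 1.25 on the arms, so chromosome 4 stayed below the arms with these steps. Since each step is known only up to a small whole-number factor, values divided by it hold only if that factor is the same for all chromosomes and both lists. The median ratio was below 1 in each segment, at 0.728, 0.671 and 0.652 from the centromeric side to the tip. Single pairs reached ratios of 1.42, 3.59 and 1.19 in these segments. The ratio differed with the replicate 1 score. That score is also the denominator of the ratio, so classing by it can itself lower the ratio in the higher classes. For pairs with a replicate 1 score under 4 the median ratio was 0.996 over 11 pairs, from 4 to 8 it was 0.615 over 22 pairs, and at 8 or more it was 0.637 over 13 pairs. On the arms the same classes gave 1.07, 0.960 and 0.981.

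Shared peaks were also narrower in replicate 2. In 45 of 46 pairs the replicate 1 peak was the wider (97.8%, arms 78.8%), and the replicate 2 peak lay wholly inside the replicate 1 peak in 36 (78.3%, arms 56.6%). The median width was 268 bp in replicate 1 and 98 bp in replicate 2, with a median ratio of 0.382 against 0.704 on the arms, and no arm window reached as low (0.508 to 1.17). The centres of paired peaks were a median of 26.2 bp apart, against 23.0 bp on the arms. The lower scores were not limited to narrow peaks, since pairs whose replicate 2 peak was at least 100 bp wide had a median ratio of 0.634 over 23 pairs, against 1.01 on the arms. The part that widths and scores have in the lower overlap was not tested.

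**Figure D5:**
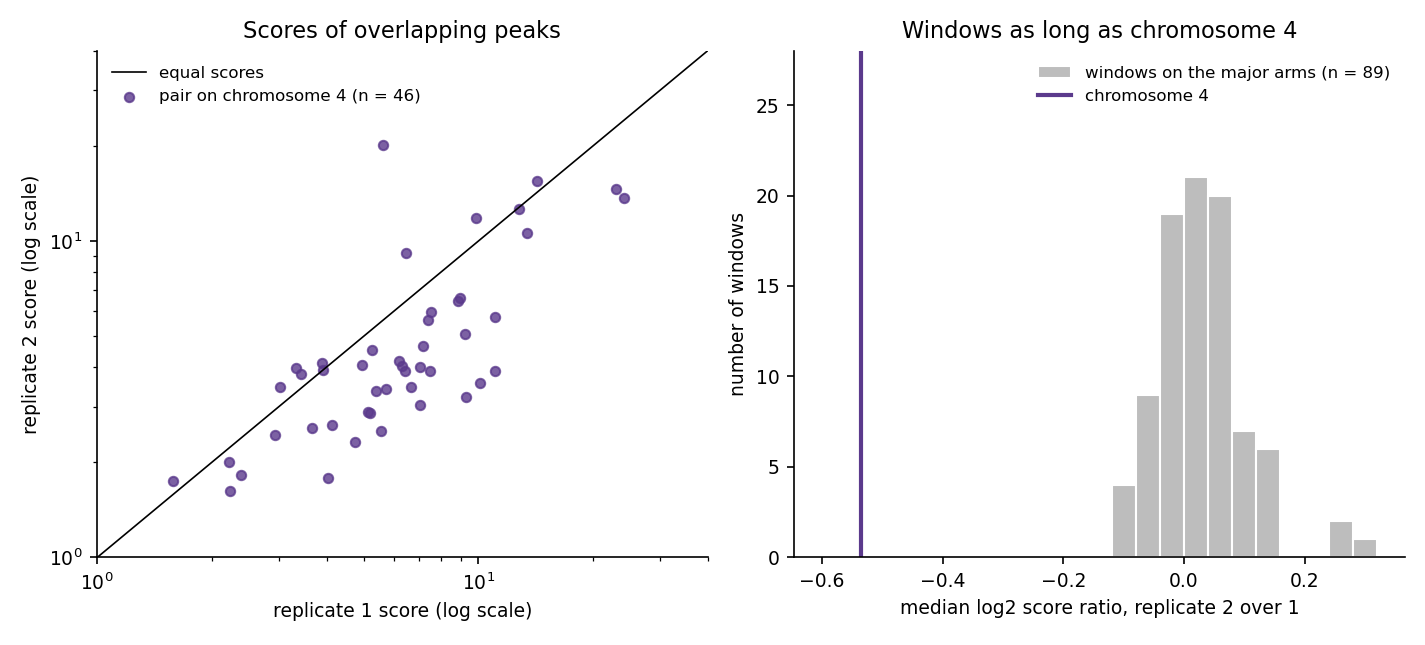
Left, replicate 2 against replicate 1 score of the 46 overlapping pairs on chromosome 4 (log axes), with a line of equal scores. Right, histogram of the median log2 score ratio of replicate 2 over replicate 1 in 89 windows of the major arms, with chromosome 4 as a vertical line at -0.54, left of all windows, which run from -0.11 to 0.30.

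The order of the shared sites by score was similar in both lists, with a Spearman's rho of 0.718 over 46 pairs on chromosome 4 and 0.753 to 0.803 within single arms. The pairs come from the same pair of libraries, and the value is a description. The 3 pairs nearest to equal scores were those of MCM_R1_7776 (957053 to 957178, scores 3.92 and 3.91), MCM_R1_7698 (156618 to 156866, 12.8 and 12.6) and MCM_R1_7773 (950501 to 950621, 3.88 and 4.11). The largest fall was at MCM_R1_7702 (176617 to 176919), which scored 9.26 in replicate 1 and 3.23 in replicate 2. Next came MCM_R1_7705 (199927 to 200210, 11.1 and 3.89), MCM_R1_7762 (887560 to 887876, 10.1 and 3.56) and MCM_R1_7707 (202340 to 202634, 7.05 and 3.02). All but MCM_R1_7762 lay close together on the centromeric side. Of the 9 pairs higher in replicate 2, MCM_R1_7740 (680027 to 680386) rose most, from 5.62 to 20.2, and its replicate 2 peak was only 12 bp wide. The other 8 had ratios from 1.06 to 1.42.

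The 12 series intervals with the highest scores are ranked by the mean of the replicate scores. MCM_4646 at 951278 to 951422 led with 18.9, from 24.2 in replicate 1 and 13.7 in a replicate 2 peak of 5 bp. MCM_4619 (152660 to 152855) had scores of 22.9 and 14.6. MCM_4626 (214420 to 214580) had 14.2 and 15.5 and was even between the lists. These 3 ranked 5, 6 and 9 among all intervals of the series as deposited. MCM_4633 (680027 to 680386) scored 5.62 and 20.2 and rested on the replicate 2 peak of 12 bp named above. MCM_4620 (156610 to 156866) scored 12.8 and 12.6 with widths of 249 and 145 bp, and differed least between the lists among the 12. MCM_4639 (809076 to 809202) scored 13.4 and 10.6, and MCM_4631 (592348 to 592450) scored 9.86 and 11.9. The others were lower in replicate 2 except MCM_4618 (149551 to 149860), which scored 6.45 and 9.19 with a replicate 2 peak of 1 bp. MCM_4628 (230761 to 230920) scored 11.0 and 5.77, and MCM_4641 (899982 to 900169) scored 8.95 and 6.59. MCM_4629 (328648 to 328809) scored 8.86 and 6.48, and MCM_4622 (199927 to 200210) scored 11.1 and 3.89. Of the 12, 7 lay between 149551 and 328809.

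Shared sites formed short groups. With neighbours within 10 kb, the 46 intervals fell into 25 groups, of which 16 were single intervals and 3 had 4 or more members. The largest ran from MCM_4612 to MCM_4617 (76952 to 90936), with 6 intervals scoring 2.68 to 5.19, over 8 replicate 1 and 10 replicate 2 peaks. The group from MCM_4643 to MCM_4647 (948120 to 957182) had 5 intervals with scores from 1.66 to 18.9. The group from MCM_4635 to MCM_4638 (715651 to 718376) packed 4 intervals into 2726 bp, with scores from 4.03 to 7.16, each matched by 1 peak in each replicate. It stood right before the longest stretch without any peak. Gaps of at most 10 kb made up 46.7% of 45 gaps between these intervals on chromosome 4 and 57.2% on the arms.

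A dense group of mostly unmatched replicate 2 peaks surrounded MCM_4646. From 930 to 990 kb, a span chosen after the positions were seen, replicate 2 had 23 peaks, which were 25.6% of its chromosome 4 peaks, and replicate 1 had 15. Of these, 6 in each list overlapped. The replicate 2 peaks had a median width of 36 bp and a median score of 2.65, and 12 of them were under 50 bp. The replicate 1 peaks there had a median width of 114 bp and a median score of 3.33.

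The highest scores on chromosome 4 stood near the tip in replicate 2 alone. The 7 peaks lay within 29.7 kb, from 1280722 to 1310391, and began 25.8 kb beyond the last replicate 1 peak. MCM_R2_6477 (1280722 to 1280817, 96 bp) scored 1684, and MCM_R2_6479, the widest replicate 2 peak, scored 958. MCM_R2_6481 (1306686 to 1307093) scored 201, and the other 4 scored from 94.2 to 199. These 7 peaks ranked 10 to 93 in the whole replicate 2 list, in which 9 major-arm peaks reached the lowest of them. So did 22 peaks on the heterochromatin scaffolds and 55 on U, and most scores of this size thus lay outside chromosome 4. The other 83 replicate 2 peaks on chromosome 4 had a median score of 3.80 and a highest score of 40.9, and 50 of them overlapped a replicate 1 peak (60.2%). Without the group at the tip, the replicate 2 share was thus still below the 65.5% of X, the lowest arm. Whether that difference exceeds counting error was not tested.

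The highest replicate 1 scores on chromosome 4 belonged to both unmatched and matched peaks. MCM_R1_7716 at 251928 to 252072 scored 33.2, with rank 3 in the replicate 1 list, and its nearest replicate 2 peak was 21072 bp away. MCM_R1_7803, the last replicate 1 peak, scored 26.9 and was 23 bp wide. MCM_R1_7719 at 335408 to 335564 scored 22.0, with rank 5 on chromosome 4, and lay 6734 bp from a replicate 2 peak. Ranks 3 and 4 on chromosome 4 overlapped a replicate 2 peak. They were MCM_R1_7775, which scored 24.2 and is the replicate 1 peak of MCM_4646, and the replicate 1 peak of MCM_4619, which scored 22.9. MCM_R1_7716 stood at the edge of the 76.6 kb stretch without a peak, and the highest replicate 1 score of the chromosome was therefore unmatched in replicate 2.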

How the data were processed

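The lists of both MCM immunoprecipitations and of the whole series were used. Per the file headers, coordinates are on FlyBase release 5.1, and the caller column names PeakSeq. The score of each peak is the authors' deposited value with no named unit. No source used here states the aligner, the caller's settings, its control or its score cut-off. Each immunoprecipitation has its own list. Depth is unknown.

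Overlap needed at least 1 bp; where several replicate 2 peaks overlapped, the largest overlap made the pair. Length was the last peak end over the lists. Shares have exact (Clopper-Pearson) 95% intervals, which cover counting error only. No test was run. Named sites followed a written rule: the 12 highest series intervals, the 3 widest, highest and highest unmatched peaks of each list, the 5 largest and 3 smallest score ratios, the 5 longest empty stretches, the 3 fullest bins, end peaks and groups of 4 or more. MCM_R2_6425 was named after its values were seen. The members and lists were chosen with earlier results of these data known. Gene content and sequence were not analysed here, since the annotation in hand is of Release 6. The code was tested on simulated data. Tools were pandas 2.3.3, NumPy 2.4.6, SciPy 1.17.1 and matplotlib 3.10.9 under Python 3.11.15.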

Additional observations from a re-analysis of the deposited data

How the results depend on the processing

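Of 42 alternatives over 8 results, 32 were labelled as the same, 7 as moved and 3 as reversed. These counts do not measure robustness, because some labels could not have come out otherwise. Leaving out 1 of 2 replicates always shifts their mean by less than their SD, so it could never be labelled as moved. Leaving out the tip could not alter the replicate 1 share, since no replicate 1 peak lies there. Score likeness and the pair score ratio have no SD between replicates. All alternatives for score likeness were labelled as moved, even 0.713 against 0.718. The share of chromosome 4 replicate 1 peaks that overlapped fell to 14.6% when at least 50% of the peak had to be covered. The replicate 2 share rose to 71.7% without peaks under 50 bp. Neither setting was applied to the arms or to all chromosomes, so these 2 shares cannot be compared with the shares given for those above. The density ratio was 1.40 in the higher-scoring 50% of each list. The median gap ratio of 0.790 became 1.03 after merging peaks closer than 1 kb. The median width ratio of 0.861 became 1.10 among overlapping peaks. Leaving out a replicate gave 1.04 to 1.19 for density, 0.721 to 0.859 for the gap, 0.655 to 1.07 for width and 1.07 to 1.56 for the score ratio. Score likeness was 0.755 as Pearson's r on log2 scores, 0.713 for pairs at or below 20 and 0.705 from replicate 2. The pair score ratio of 0.690 became 0.796 after division by the steps, which are known only up to a whole-number factor. The cause of these shifts was not tested. Alternatives without the tip of the chromosome, with score steps and on the pair ratio were chosen after seeing the data. No paired analysis was possible because both immunoprecipitations belong to 1 group. Depth is unknown, and 123 and 90 peaks limit the precision.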
